A study of Rattus norvegicus with 18 samples.

Results

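A set of 7 genes that make or inactivate androgens and estrogens was followed through ovulation in rat ovarian follicles. They are Cyp17a1, Cyp19a1, Hsd17b1, Hsd17b4, Hsd17b12, Sult1e1 and Cyp1b1, chosen by name as the probe sets whose only gene symbol in the array annotation was one of them. This gave 9 probe sets for 7 genes, of 31042 probe sets in all without controls, of which 20826 carried a single gene symbol and stood for 14217 genes. Cyp19a1 had 3 probe sets and the other genes 1 each. All 9 passed the filter on low values.

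The ovarian follicle makes sex steroids through a pair of cell types. Theca cells outside the basement membrane hold Cyp17a1, which turns progestins into androgens, and the granulosa cells inside it hold Cyp19a1, the aromatase that turns androgens into estrogens, and Hsd17b1, which reduces estrone to the more active estradiol. Other enzymes remove the product: Sult1e1 attaches a sulfate group to estradiol so that it no longer binds its receptor, Hsd17b4 is a peroxisomal enzyme that oxidizes estradiol and also takes part in fatty acid breakdown, and Cyp1b1 hydroxylates estradiol to catechol estrogens. The surge of luteinizing hormone that sets off ovulation is known to end estrogen synthesis in the follicle and to turn it towards progesterone.

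The follicles came from Crl:CD(SD) rats and were laser-microdissected from frozen ovary sections 8 micrometres thick, with 15 follicles taken in each phase. On estrus at 10:00, unruptured follicles were taken from rats given indomethacin (IM UF), an inhibitor of prostaglandin synthesis, or RU486 (RU UF), which blocks the receptors of progesterone and of glucocorticoids, and post-ovulatory follicles from untreated rats (control PoF). On proestrus at 22:00, peri-ovulatory follicles were taken under each treatment (IM PeF, RU PeF and control PeF), before rupture. Indomethacin was given once by mouth at 4 mg/kg at 16:00 of proestrus, and RU486 once by mouth at 100 mg/kg at 10:00 of proestrus, so the drugs differed in dose and time of dosing as well as in kind. The labels call the control rats non-treated and name no vehicle. The 22:00 follicles are called peri-ovulatory in the sample titles and pre-ovulatory in the design text. Each of the 6 groups had 3 samples. The labels give 3 animals per treatment group and time without tying a sample to an animal. P-values here thus set differences between groups only against the spread of samples within groups, which may be technical. Treated follicles had not ruptured by estrus while control follicles had, and treatment and rupture cannot be told apart at that time. The animals' age is not stated in the labels.

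The deposited signals differed in brightness between arrays, with medians from 4.40 to 27.4, and 45.7% to 75.3% of its probe sets lay above an array's background, which was set by the brightest control probe set without a spiked target. Signals are given here after quantile normalization, on a linear scale, and are compared only within a probe set. The correlation of replicate arrays across probe sets ran from 0.869 to 0.976. Of 10 granulosa markers none lay at background on all 3 arrays of any group. Of 7 theca markers Gli1 did so in control PoF and RU PeF. Of the oocyte markers, Bmp15 did so in every group, Zp1 in every group but RU PeF, and Zp3 in control PoF and IM UF. Of the leukocyte markers, Itgam did so in every group and Cd3e in both control groups. A gene was called where limma's adjusted p was under 0.05.

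Between proestrus and estrus, signals of Cyp17a1, Cyp19a1, Hsd17b1 and Sult1e1 fell in untreated follicles, and that of Hsd17b4 rose. Against control PeF, 4 of the 7 genes were lower and 1 higher in control PoF, where 39.6% of the 18158 probe sets tested were called in either direction (21.1% higher, 18.5% lower). Of these calls 53.3% were higher, a share that was 74.5% with median scaling and 97.5% without normalization. The median log2 difference was -1.99 over the 7 genes and 0.05 over all probe sets tested. The former was the value of Cyp1b1, which was not called and stood at -0.79 when control PeF 3 was left out. Those 5 genes were also called in RU UF against RU PeF, in the same directions (38.8% of probe sets called, 18.9% higher and 19.9% lower, median over the genes -1.59 and over all probe sets -0.02). In IM UF against IM PeF 1 was higher and 3 lower, Hsd17b1 not being called (33.3% called, 16.3% higher and 17.1% lower, medians -2.06, again the value of the uncalled Cyp1b1, and -0.03). These 3 comparisons share no samples. In such bulk samples, fewer cells of a type and less RNA per cell cannot be told apart. The 3'/5' ratio of the Gapdh control probe sets, which grows as RNA is degraded, was lower in control PoF (log2 2.07 to 2.31) than in control PeF (2.96 to 4.11). It was 2.19 to 3.86 in IM UF against 2.59 to 3.63 in IM PeF. In RU UF it was 2.86 to 3.27, against 2.66 to 2.95 in RU PeF. The deposited medians were 24.2 to 27.4 in control PoF against 4.40 to 22.3 in control PeF. Summed theca markers were 1915 to 2060 in control PoF against 2782 to 3079 in control PeF, with 1 of 6 tested called lower and none higher. Theca markers had 1 of 6 called lower in IM UF against IM PeF, and 1 of 6 called higher in RU UF against RU PeF. Summed granulosa markers were 17303 to 18942 in control PoF against 18009 to 24424 in control PeF. Of 10 granulosa markers 5 were called higher and 3 lower there. In IM UF against IM PeF 4 were higher and 2 lower, and in RU UF against RU PeF 5 were higher and 3 lower. Summed smooth muscle markers were 569 to 685 in control PoF against 414 to 473 in control PeF, with 3 of 6 called higher and 1 lower. They were 802 to 957 in IM UF against 265 to 352 in IM PeF (5 of 6 higher), and 318 to 445 in RU UF against 175 to 181 in RU PeF (5 of 6 higher, 1 lower). The part of these in the differences was not tested.

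**Figure D1:**
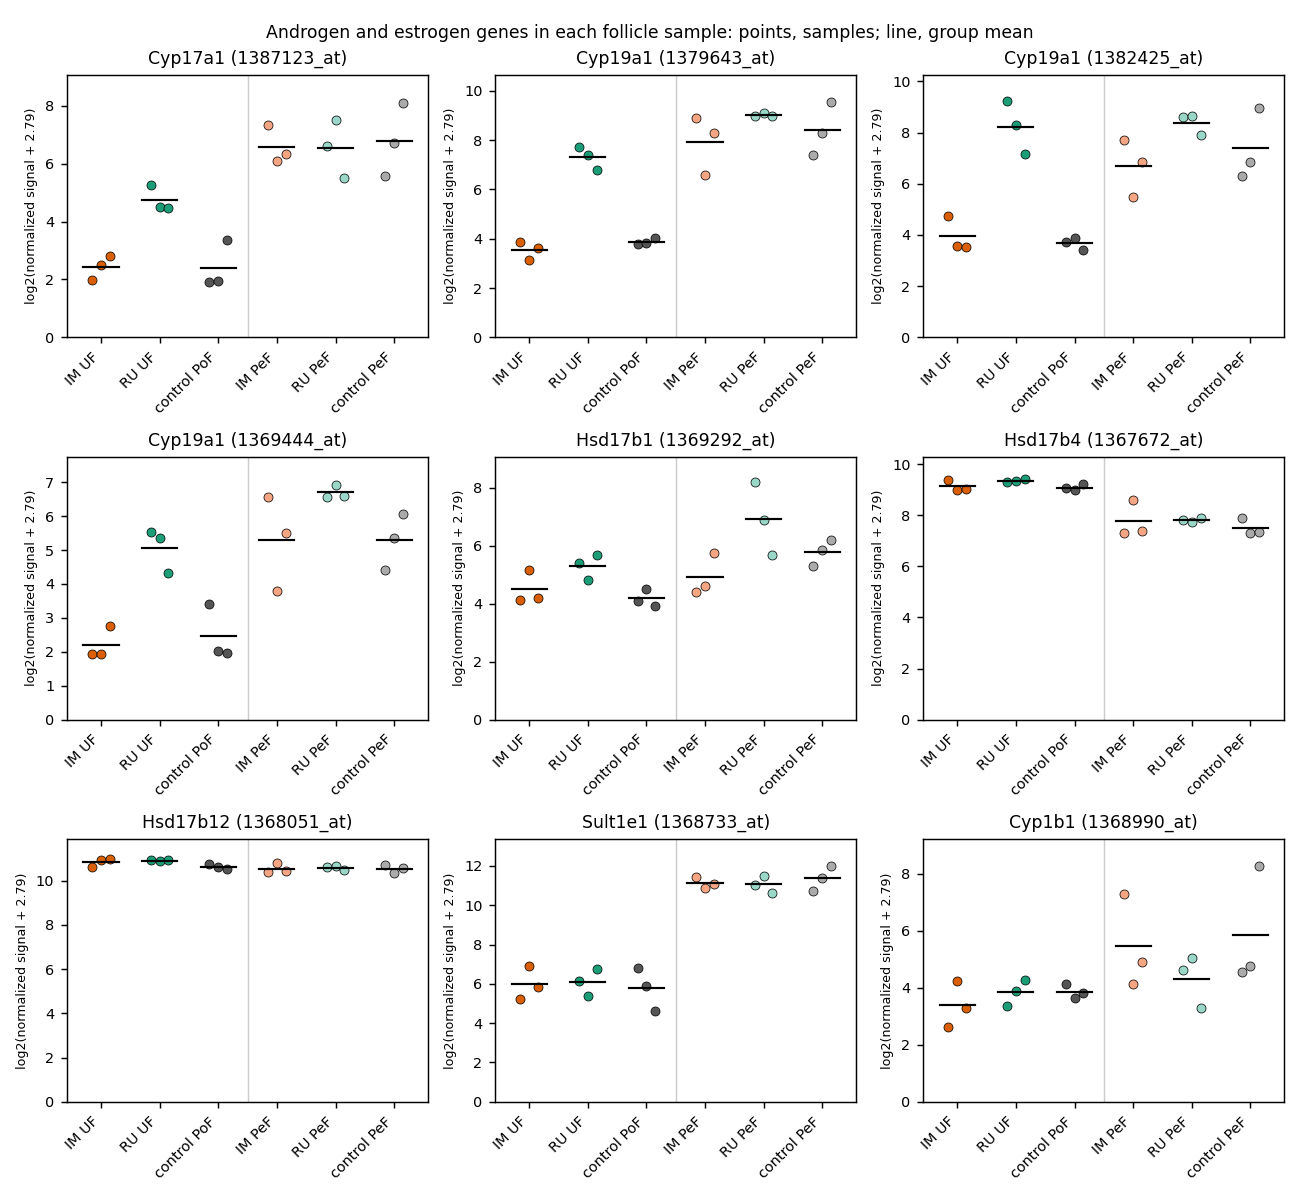
Quantile-normalized signal of the 9 probe sets in every sample, as log2(signal + 2.79) on the vertical axis, by group on the horizontal axis, with the estrus groups left of the grey line and the proestrus groups right of it. Points are samples and black lines group means; Sult1e1 is low in all 9 estrus samples, and Cyp17a1 and Cyp19a1 are lower in IM UF and control PoF than in RU UF.

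Sult1e1, the estrogen sulfotransferase, fell in all 3 treatments. Its normalized signals were 109, 55.5 and 22.1 in control PoF, against 1709.5, 2716 and 4126 in control PeF. They were 34.3, 116 and 55.3 in IM UF, against 2749, 1885 and 2172 in IM PeF. In RU UF they were 67.2, 38.5 and 105, against 2093, 2899 and 1583 in RU PeF. All 9 estrus samples lay below all 9 proestrus samples, and the 3 groups of each time overlapped one another. Sult1e1 fell 49.1-fold in control PoF (log2 -5.62 ± 0.49, limma adjusted p = 1.83e-07; n = 3 in each group, errors are SE), 35.3-fold in IM UF (-5.14 ± 0.49, limma adjusted p = 5.12e-07) and 31.4-fold in RU UF (-4.97 ± 0.49, limma adjusted p = 5.22e-07). No difference from the control of the same time was called under either drug, with 4 log2 differences between -0.33 and 0.31.

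Hsd17b4, the peroxisomal dehydrogenase that oxidizes estradiol, went the other way. It had normalized signals of 532, 508 and 590.0 in control PoF, against 234, 155 and 162 in control PeF. Treated follicles did likewise, with 674, 511 and 517 in IM UF against 157, 388 and 163 in IM PeF. In RU UF the values were 638, 641 and 686, against 224, 214 and 237 in RU PeF. Every estrus sample lay above every proestrus sample. Hsd17b4 rose 2.97-fold in control PoF (log2 1.57 ± 0.25, limma adjusted p = 9.34e-05), 2.60-fold in IM UF (1.38 ± 0.25, limma adjusted p = 0.000375) and 2.89-fold in RU UF (1.53 ± 0.25, limma adjusted p = 0.000107). With the deposited signals, unscaled between arrays, the difference was 1.40 in IM UF (adjusted p = 0.519) and 1.35 in RU UF (0.427), neither called, and 3.04 in control PoF (0.00145).

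The sequences before the start sites of both genes are shown because, of the members with a promoter entry, these were called in all 3 time comparisons, in opposite directions. The 250 bases before the RefSeq start (build GRCr8) lie at chr14:20701230-20701479 on the plus strand for Sult1e1 and at chr18:45515177-45515426 on the plus strand for Hsd17b4. Capitals mark the match to AAGGTCA, the single site of NR5A receptors such as steroidogenic factor and Nr5a2, here on the minus strand.
Sult1e1: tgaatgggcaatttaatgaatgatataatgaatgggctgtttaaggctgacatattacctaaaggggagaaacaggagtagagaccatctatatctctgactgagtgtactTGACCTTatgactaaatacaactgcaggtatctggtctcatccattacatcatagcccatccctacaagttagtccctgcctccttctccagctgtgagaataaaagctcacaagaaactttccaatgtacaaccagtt
Hsd17b4: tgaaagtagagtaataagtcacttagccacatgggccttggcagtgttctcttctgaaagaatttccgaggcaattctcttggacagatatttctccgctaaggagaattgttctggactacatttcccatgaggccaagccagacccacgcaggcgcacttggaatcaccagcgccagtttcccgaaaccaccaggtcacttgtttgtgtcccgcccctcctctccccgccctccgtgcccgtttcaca
The match in Sult1e1 lay 139 to 133 bases before the start, and 3.99% of 33469 promoter windows of the same length held this motif on either strand. The cyclic AMP response element TGACGTCA (1.59% of windows), its shorter form TGACG, which the full element contains (18.2%), and the GATA motif AGATAA (10.3%) were absent from both windows. Hsd17b12 and Cyp1b1 also had a promoter entry. Of the same motifs, Hsd17b12 held TGACG on the minus strand 71 to 67 bases before the start, and Cyp1b1 held none. No entry was used for Cyp17a1, Cyp19a1 or Hsd17b1. A match is a match of letters and not a measured binding site.

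Cyp17a1, the enzyme that makes androgens, had normalized signals of 1.00, 1.07 and 7.49 in control PoF, against 45.1, 101 and 271 in control PeF. It had 1.14, 2.82 and 4.17 in IM UF, against 158, 65.4 and 78.2 in IM PeF. RU UF retained 35.3, 20.1 and 19.5, against 95.9, 181 and 42.2 in RU PeF. Within each treatment the estrus samples lay below the proestrus samples, and the 3 RU UF samples lay above the 6 other estrus samples. Cyp17a1 was above background on 1 of 3 arrays of control PoF and on none of IM UF. It fell in control PoF (log2 -4.38 ± 0.59, limma adjusted p = 1.90e-05). In IM UF it was at least 8.75-fold lower than in IM PeF (limma adjusted p = 3.65e-05), a bound that sets each IM UF array at the higher of its own value and the lowest signal above its background. It fell 3.48-fold in RU UF (-1.80 ± 0.59, limma adjusted p = 0.0226). That last call was lost without RU PeF 1 (adjusted p = 0.0592), RU PeF 2 (0.128), RU UF 2 (0.0687) or RU UF 3 (0.0709), and with the deposited signals (0.058).

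Cyp19a1, the aromatase, was read by 3 probe sets. The one that stands for the gene here, 1379643_at, had normalized signals of 11.1, 11.3 and 13.4 in control PoF, against 164, 314 and 748 in control PeF. It had 11.8, 6.07 and 9.43 in IM UF, against 474, 93.2 and 314 in IM PeF. In RU UF it read 208, 165 and 108, against 508, 549 and 502 in RU PeF. Aromatase was low in all 6 control and indomethacin samples of estrus and stayed above all of them in RU UF. It fell 23.2-fold in control PoF (log2 -4.53 ± 0.49, limma adjusted p = 1.96e-06), 20.9-fold in IM UF (-4.39 ± 0.49, limma adjusted p = 2.96e-06) and 3.31-fold in RU UF (-1.73 ± 0.49, limma adjusted p = 0.0098). The call in RU UF was lost without RU UF 3 (adjusted p = 0.0501) and with the deposited signals (0.123).

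Of the other two aromatase probe sets, 1 was not called between RU UF and RU PeF. Signals of 1382425_at were 592, 310.4 and 140.1 in RU UF, against 386, 400.4 and 238 in RU PeF, and the groups overlapped (log2 -0.17 ± 0.63, limma adjusted p = 0.862). The same set had 10.6, 12.1 and 7.86 in control PoF, against 77.1, 113 and 500.0 in control PeF (log2 -3.70 ± 0.63, limma adjusted p = 0.000185). It had 24.2, 8.95 and 8.71 in IM UF, against 209, 42.2 and 112 in IM PeF (-2.74 ± 0.63, limma adjusted p = 0.00268). Aromatase thus fell by all probe sets in control and indomethacin follicles, and by 2 of the 3 under RU486. The third, 1369444_at, read 43.7, 38.1 and 17.4 in RU UF, against 92.5, 119 and 94.1 in RU PeF (-1.62 ± 0.60, limma adjusted p = 0.0386), a call that 5 of the 6 omissions of a single RU array ended, as did 3 other settings. It read 7.89, 1.28 and 1.11 in control PoF, against 18.7, 38.2 and 64.6 in control PeF (-2.82 ± 0.60, limma adjusted p = 0.00119), and was above background on 1 of 3 control PoF arrays. In IM UF, with 1.01, 1.06 and 3.95 and no array above background, it was at least 3.56-fold lower than in IM PeF, with 92.0, 11.1 and 42.4 (limma adjusted p = 0.000649).

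Hsd17b1, which reduces estrone to estradiol in granulosa cells, varied widely between replicates. It had normalized signals of 14.4, 20.1 and 12.3 in control PoF, against 36.2, 55.0 and 70.4 in control PeF. It had 14.6, 33.2 and 15.5 in IM UF, against 18.4, 21.8 and 50.8 in IM PeF. RU UF had 39.9, 25.6 and 48.6, against 287, 114 and 47.7 in RU PeF. The estrus and proestrus groups were apart in untreated follicles and overlapped under both drugs. Hsd17b1 fell 3.03-fold in control PoF (log2 -1.60 ± 0.51, limma adjusted p = 0.0183) and 3.02-fold in RU UF (-1.59 ± 0.51, limma adjusted p = 0.0187). In IM UF the difference was -0.43 ± 0.51 (limma adjusted p = 0.554). The control call was lost without control PeF 3 (-1.39, adjusted p = 0.0601), control PoF 3 (0.0649) or the 3 dimmest arrays (0.0505), and with the deposited signals (-0.39, adjusted p = 0.615). The RU486 call was lost without RU PeF 1 (-0.96, adjusted p = 0.137) or RU UF 2 (0.0797), and with the deposited signals (0.117).

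Hsd17b12, best known for a step in the elongation of fatty acids and also able to reduce estrone, varied little, with all 18 samples between 1305 and 2003. Its log2 differences between the times were 0.09 ± 0.12 in control PoF, 0.32 ± 0.12 in IM UF and 0.32 ± 0.12 in RU UF (limma adjusted p = 0.587, 0.0573 and 0.0503), and none passed the threshold. The difference was called in 4 alternative settings each under indomethacin (0.38 to 0.44, adjusted p = 0.00138 to 0.0254) and under RU486 (0.30 to 0.32, adjusted p = 0.0107 to 0.0493), and with arrays weighted by quality in control PoF (0.23, adjusted p = 0.0388). Cyp1b1, which hydroxylates estradiol, was uneven between replicates. Its signals were 14.7, 9.60 and 11.4 in control PoF, against 20.8, 24.0 and 302 in control PeF. IM UF had 3.42, 16.2 and 6.95, against 154, 14.8 and 27.2 in IM PeF. RU UF had 7.41, 12.1 and 16.5, against 21.7, 30.3 and 6.92 in RU PeF. A single high sample stood out in both control PeF and IM PeF, and control PoF lay wholly below control PeF. The deposited control PeF signals were 18.55, 29.84 and 38.62. The high control PeF sample, on the dimmest array, thus stood out only after scaling between arrays. In IM PeF the deposited signals were 169, 9.38 and 29.3. No time difference was called (log2 -1.99 ± 0.85 in control PoF, -2.06 ± 0.85 in IM UF and -0.48 ± 0.85 in RU UF, limma adjusted p = 0.0707, 0.0709 and 0.697). Without control PeF 1 or control PeF 2 the control difference was called (-2.64, adjusted p = 0.0252, and -2.54, adjusted p = 0.0389), and without control PeF 3 it was -0.79 (adjusted p = 0.421). The difference under indomethacin was called without IM PeF 2 (-2.71, adjusted p = 0.0284), with median scaling (adjusted p = 0.0356) and in 3 other settings. Cyp1b1 was above background on 1 of 3 IM UF arrays and 2 of 3 RU PeF arrays.

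**Figure D2:**
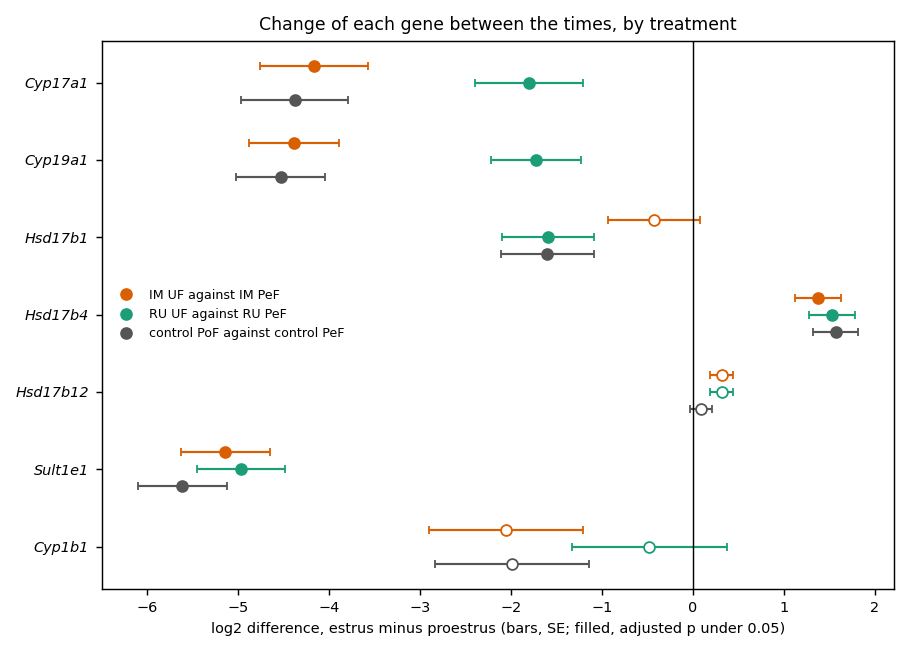
Log2 difference of each gene between estrus and proestrus (horizontal axis), through its brightest probe set, within each treatment. Points are limma estimates, bars standard errors, and filled points passed an adjusted p of 0.05; Sult1e1 lies between -5.62 and -4.97 in all 3 treatments, while Cyp17a1 and Cyp19a1 lie at -1.80 and -1.73 under RU486 and lower in the other two. The point of Cyp17a1 under indomethacin is a fitted value with all 3 IM UF arrays at background, where only a bound of at least 8.75-fold holds.

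Against ruptured control follicles at estrus, RU UF had more Cyp17a1 and more Cyp19a1, and no difference of another of the 7 genes was called. These 2 genes were higher where 8.72% of probe sets were called (4.21% higher, 4.51% lower; the higher share of calls was 48.3%, and 36.2% with median scaling and 6.62% without normalization), and the median log2 difference was 0.31 over the 7 genes and -0.02 over all probe sets. Aromatase was 10.7-fold higher in RU UF by 1379643_at (log2 3.42 ± 0.49, n = 3 per group, limma adjusted p = 0.000241), with 208, 165 and 108 in RU UF against 11.1, 11.3 and 13.4 in control PoF. By 1382425_at the log2 difference was 4.54 ± 0.63 (limma adjusted p = 0.000164). By 1369444_at it was 2.61 ± 0.60 (limma adjusted p = 0.0101), with adjusted p = 0.0501 without control PoF 2 and 0.0509 without control PoF 3. The 3 RU UF samples lay above the 3 control PoF samples in each of the 3 probe sets, as they did in 17.4% of all probe sets.

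Cyp17a1 was 2.34 ± 0.59 higher in RU UF than in control PoF on the log2 scale (limma adjusted p = 0.0191), and the groups did not overlap. Since only 1 of 3 control PoF arrays was above background, the size of this difference rests on values near the floor. The call was lost without RU UF 1 (adjusted p = 0.0849), control PoF 1 (0.0877) or control PoF 2 (0.0851), with the deposited signals (0.0975), and with the median of all signals as pseudocount (1.07, adjusted p = 0.161). The summed signal of 7 theca markers ran the other way, with 1234 to 1515 in RU UF against 1915 to 2060 in control PoF. Of 6 theca markers tested 3 were lower in RU UF, namely Tcf21, Pdgfra and Nr2f2, and none was higher. Summed granulosa markers were 18458 to 20995 in RU UF against 17303 to 18942 in control PoF, with 2 of 10 called higher and none lower. Summed luteal markers (4 genes) were 12527 to 14612 in RU UF against 7025 to 8059 in control PoF, with 2 of 3 tested called higher, Lhcgr and Prlr. The same list had 0 of 3 called higher and 1 lower in control PoF against control PeF. A higher level of it is thus not read here as more luteal cells. The Gapdh 3'/5' log2 ratio was 2.86 to 3.27 in RU UF and 2.07 to 2.31 in control PoF. The part of these in the differences was not tested.

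In IM UF against the same control PoF samples no member was called, where 0.033% of probe sets were (6 of 18158, all lower, with 1265 at an unadjusted p under 0.05). The medians were 0.05 over the 7 genes and -0.01 over all probe sets. Cyp17a1 was above background on none of the IM UF arrays and 1 of 3 control PoF arrays, so no difference is given for it. Aromatase (1379643_at) differed by -0.34 on the log2 scale, with a 95% interval of -1.38 to 0.70, and Sult1e1 by 0.22, with an interval of -0.81 to 1.25. Unruptured indomethacin follicles and ruptured control follicles overlapped in all 9 probe sets, where over all probe sets 8.64% lay wholly above and 8.89% wholly below control PoF. The widest interval was that of Cyp1b1, at -2.26 to 1.31.

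At proestrus, before rupture, no member was called under either drug, in comparisons that share the control PeF samples. In IM PeF against control PeF 0% of probe sets were called (2066 of 18158 at an unadjusted p under 0.05, none with either median scaling or unnormalized signals, and 2310 called with arrays weighted by quality), and the members' log2 differences ran from -0.86 for Hsd17b1 to 0.25 for Hsd17b4 (median -0.26, against 0.05 over all probe sets). In RU PeF against control PeF 7.41% were called, of which 46.0% were higher (74.9% with median scaling and 63.6% without normalization), and the medians were 0.05 over the 7 genes and 0.06 over all probe sets. The 3 aromatase probe sets had log2 differences of 0.61 ± 0.49, 1.01 ± 0.63 and 1.42 ± 0.60 for 1379643_at, 1382425_at and 1369444_at (limma adjusted p = 0.476, 0.348 and 0.157). RU PeF was even, with 508, 549 and 502 by 1379643_at, while control PeF had 164, 314 and 748. Leaving out the 3 dimmest arrays, one of which is control PeF 3, aromatase was called (1.18, adjusted p = 0.0108, by 1379643_at), as it was with arrays weighted by quality (0.80, adjusted p = 0.0462). In another setting 1382425_at, 1369444_at and Hsd17b1 were called too (lowest limma adjusted p = 0.00772, 0.0214 and 0.0464). By 1369444_at RU PeF lay wholly above control PeF, as in 13.5% of all probe sets. Theca markers summed to 1199 to 1407 in RU PeF against 2782 to 3079 in control PeF, with 3 of 6 lower, while Cyp17a1 differed by -0.24 with an interval of -1.49 to 1.00.

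**Figure D3:**
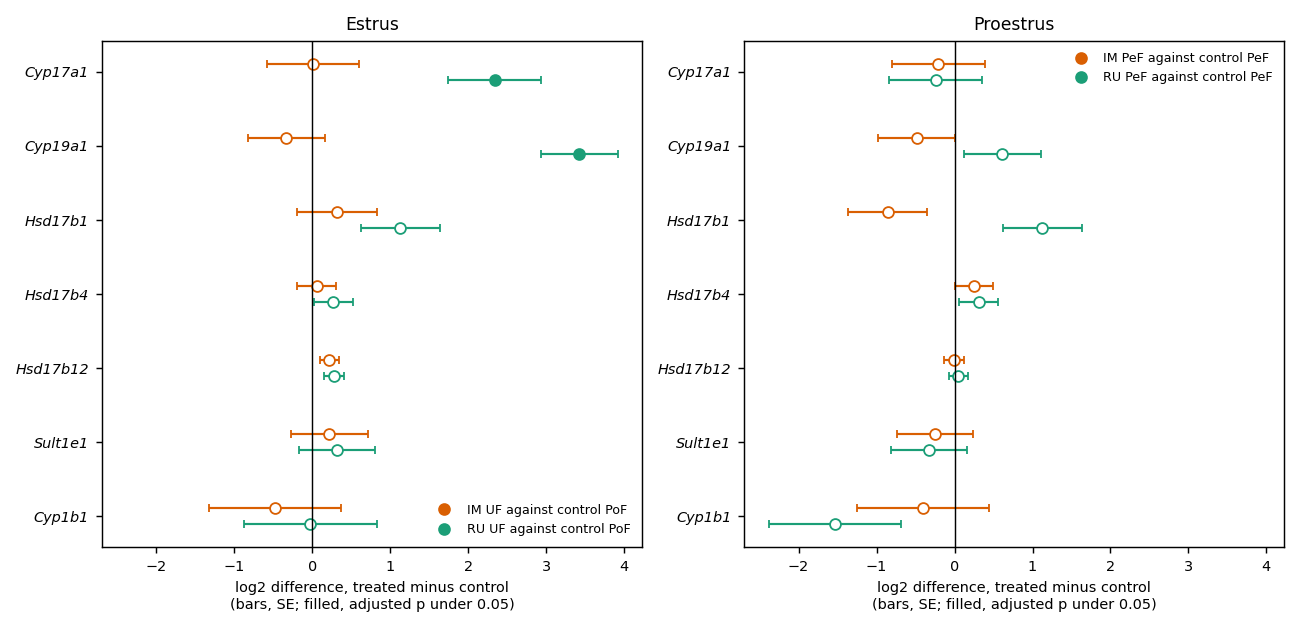
Log2 difference of each gene between treated follicles and the control of the same time (horizontal axes), at estrus in the left panel and at proestrus in the right. Points are limma estimates, bars standard errors, and filled points passed an adjusted p of 0.05; the filled points are Cyp19a1 at 3.42 and Cyp17a1 at 2.34, both RU UF against control PoF. Cyp17a1 was at background on all 3 IM UF arrays and 2 of 3 control PoF arrays, so its points at estrus rest on values near the floor.

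The drugs were also set against each other, at doses and dosing times that differed, and these comparisons share the treated samples with those above. In IM UF against RU UF, Cyp17a1 and Cyp19a1 were lower, and none of the other 5 genes was called (6.91% of probe sets called, 3.47% lower, medians -0.45 over the genes and 0.00 over all). The median over the genes was the value of Cyp1b1, which was not called. Aromatase was 13.5-fold lower in IM UF by 1379643_at (log2 -3.76 ± 0.49, limma adjusted p = 0.000173). Cyp17a1, with no IM UF array above background, was at least 2.45-fold lower in IM UF (limma adjusted p = 0.0226). Summed luteal markers were 6225 to 7867 in IM UF against 12527 to 14612 in RU UF, with 2 of 3 called lower. Smooth muscle markers were 802 to 957 in IM UF against 318 to 445 in RU UF (3 of 6 higher), and theca markers 1649 to 2096 in IM UF against 1234 to 1515 in RU UF (1 of 6 higher). Their part in the differences was not tested. The Cyp17a1 call was lost without IM UF 1 or IM UF 2 (adjusted p = 0.0826 and 0.066) and without any of the 3 RU UF samples (0.0519 to 0.0977), with the deposited signals (0.0941) and with a pseudocount at the median (0.16). In IM PeF against RU PeF Hsd17b1 was lower (5.23% of probe sets called, 1.98% lower, medians -0.06 and -0.01), at -1.98 ± 0.51 (limma adjusted p = 0.0274), with 18.4, 21.8 and 50.8 in IM PeF against 287, 114 and 47.7 in RU PeF, so the groups overlapped. Leaving out IM PeF 1 (adjusted p = 0.0825), IM PeF 2 (0.124), RU PeF 1 (0.153), RU PeF 2 (0.0862) or the 3 dimmest arrays (0.0604) ended this call, as did fitting the pair of groups alone (0.113) and the deposited signals (0.222). Aromatase in IM PeF lay wholly below RU PeF by all 3 probe sets, as 12.5% of all probe sets did. The log2 differences were -1.10, -1.70 and -1.41 for 1379643_at, 1382425_at and 1369444_at (limma adjusted p = 0.255, 0.148 and 0.218, not called). Each was called in another setting (lowest limma adjusted p = 0.0369, 0.00354 and 0.0301).

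The difference between the effect of RU486 at estrus and its effect at proestrus was tested directly. It was called for 1 of the 7 genes, aromatase, where 4.02% of probe sets were called (2.18% higher), at 2.81 ± 0.70 on the log2 scale by 1379643_at (limma adjusted p = 0.0302). By 1382425_at it was 3.53 ± 0.89 (limma adjusted p = 0.0325) and by 1369444_at 1.19 ± 0.84 (limma adjusted p = 0.476), so 1 of the 3 probe sets did not pass. Leaving out any control PoF or RU PeF sample, RU UF 1 or RU UF 2 gave adjusted p values of 0.0537 to 0.0914 for the called pair. Without normalization the difference by 1379643_at was 1.39 (adjusted p = 0.309). For Cyp17a1 it was 2.58 ± 0.84 (limma adjusted p = 0.0962), called without control PeF 1 (3.19, adjusted p = 0.0309). The corresponding test for indomethacin called no member and 0% of probe sets (1637 at an unadjusted p under 0.05).

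Ordered by mean signal, Cyp17a1 stood highest in control PeF, then IM PeF, RU PeF, RU UF, IM UF and control PoF. Its 3 proestrus groups overlapped, RU UF overlapped neither neighbour, and IM UF and control PoF overlapped. Aromatase by 1379643_at ran from RU PeF through control PeF, IM PeF and RU UF to control PoF and IM UF, with a gap between neighbours only below RU UF. Sult1e1 had a gap only between its lowest proestrus group, RU PeF, and its highest estrus group, RU UF, and Hsd17b4 only between control PoF and RU PeF, with the estrus groups above. For Hsd17b1, Hsd17b12 and Cyp1b1 every group overlapped its neighbour. On the dimmest array, control PeF 3, Cyp17a1 had the highest normalized signal of its group (271) and the lowest deposited one (34.6). The same held for aromatase by 1379643_at (748 and 103), Hsd17b1 (70.4 and 9.89) and Sult1e1 (4126 and 803). In other settings Cyp17a1 lay up to 0.69 log2 units above control PeF in IM PeF and 0.65 in RU PeF, so control PeF was not always highest.

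The enzymes around these 7 genes also shifted with time, in both directions. Of 8 tested genes that supply precursor and electrons, 4 were higher and 2 lower in control PoF than in control PeF, where median scaling gave 2 higher and 1 lower, and unnormalized signals 3 higher and 0 lower. Cytochrome b5 (Cyb5a), which aids the androgen-forming step of Cyp17a1, had 616, 656 and 848 in control PoF against 204, 283 and 140.3 in control PeF (log2 1.79 ± 0.23, limma adjusted p = 1.13e-05). Its reductase Cyb5r3 rose by 2.03 ± 0.23 and Hsd3b1, which makes progesterone, by 0.54 ± 0.08. Star, which carries cholesterol into mitochondria, fell by 0.89 ± 0.14 but lay 0.42 higher with the deposited signals, and Hsd3b1 was not called with median scaling (0.08). Cyb5a thus went up while Cyp17a1 went down. Of 4 other tested 17-beta-hydroxysteroid dehydrogenases 2 were higher, Hsd17b8 (1.30 ± 0.22) and Hsd17b10 (1.12 ± 0.18), and none was lower. Of 3 genes of androgen reduction 1 was lower, Akr1c14, which inactivates dihydrotestosterone (-1.77 ± 0.39, and -0.31 without a call with the deposited signals).

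Of 6 tested genes of estrogen conjugation and hydroxylation, 3 were higher and 2 lower in control PoF than in control PeF. Both that were lower act in sulfation, like Sult1e1. Papss2, which makes the sulfate donor that sulfotransferases use, had 103, 101 and 96.8 in control PoF against 534, 799 and 543 in control PeF (log2 -2.58 ± 0.28, limma adjusted p = 1.67e-06, and -1.10 with adjusted p = 0.221 with the deposited signals). The sulfotransferase Sult1b1 had 106, 50.6 and 30.4 in control PoF against 844, 1165 and 2538 in control PeF (-4.56 ± 0.53, limma adjusted p = 3.74e-06). The phenol sulfotransferase Sult1a1 rose instead, with 133, 173 and 230.2 in control PoF against 22.4, 14.8 and 5.10 in control PeF (3.54 ± 0.48, limma adjusted p = 1.81e-05). Papss1, the other maker of the sulfate donor, rose by 0.91 ± 0.18. The median log2 difference was 0.04 for supply, 0.77 for the other dehydrogenases, -0.24 for androgen reduction and 0.40 for conjugation, against 0.05 over all probe sets. These 4 lists were named for this pathway with earlier results of these data known, and their counts are to be read against the 39.6% of all probe sets called.

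In RU UF against control PoF, 3 of the 8 supply genes were higher and 1 lower, where 4.21% of all probe sets were called higher and 4.51% lower, and with median scaling 1 was higher and 0 lower. The list's median log2 difference was 0.06, against -0.02 over all probe sets. Star had 7455, 10429.8 and 9328 in RU UF against 2055, 2456 and 2496 in control PoF (log2 1.95 ± 0.14, limma adjusted p = 7.98e-07). Por, the electron donor of Cyp17a1 and Cyp19a1, was higher by 0.91 ± 0.25 (limma adjusted p = 0.0283) and was not called with median scaling (adjusted p = 0.153). Fdx1, which feeds electrons to cholesterol side-chain cleavage, was higher by 0.44 ± 0.09, and H6pd, which makes NADPH in the endoplasmic reticulum, lower by 1.13 ± 0.33 on the log2 scale; neither was called with median scaling. Hsd17b7, which reduces estrone and also acts in cholesterol synthesis, had 1926, 2228 and 2191 in RU UF against 353, 352 and 229 in control PoF (2.78 ± 0.27, limma adjusted p = 8.63e-06), and it was the only one called of the 4 other dehydrogenases. With the deposited signals no gene of the 4 lists was called in this comparison, and each of those named kept its sign.

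Sult1b1 was also higher in RU UF, with 609, 155 and 719.9 against 106, 50.6 and 30.4 in control PoF (2.83 ± 0.53, limma adjusted p = 0.00216). Papss2 was lower at both times under RU486. It had 69.5, 29.5 and 35.7 in RU UF against 103, 101 and 96.8 in control PoF (-1.21 ± 0.28, limma adjusted p = 0.0103). Before rupture it had 221, 159 and 113 in RU PeF against 534, 799 and 543 in control PeF (-1.93 ± 0.28, limma adjusted p = 0.000361). Akr1c14 was lower in RU UF than in control PoF (-1.33 ± 0.39, limma adjusted p = 0.0425, and -1.43 with adjusted p = 0.0573 with median scaling) and had 58.0, 50.1 and 82.1 in RU UF against 1229, 1308 and 979 in RU PeF (-4.17 ± 0.39, limma adjusted p = 3.37e-07). In RU PeF against control PeF, Akr1c3, listed on the array as Akr1c18, was higher by 1.78 ± 0.33 (limma adjusted p = 0.00344), Star higher by 0.92 ± 0.14, Cyb5a lower by 0.98 ± 0.23 and Hsd17b10 higher by 0.61 ± 0.18, the last 2 not called with median scaling. With the deposited signals none of these RU PeF differences was called, and each kept its sign. No gene of the 4 lists was called in either indomethacin comparison with control. Over all probe sets 0% were called in IM PeF against control PeF and 0.033% in IM UF against control PoF.

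**Figure D4:**
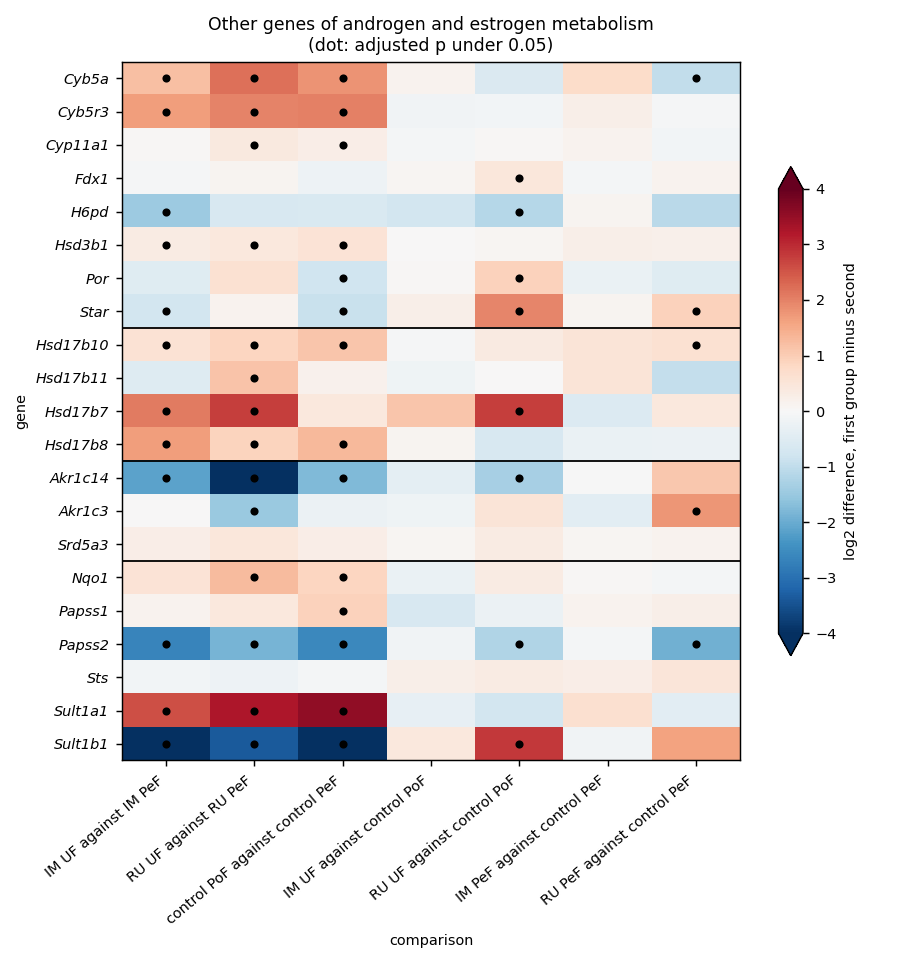
Log2 differences (colour) of the 21 tested genes of the 4 lists around the pathway (vertical axis, lists separated by lines: supply of precursor and electrons, other dehydrogenases, androgen reduction, conjugation and hydroxylation) in 7 comparisons (horizontal axis). Dots mark an adjusted p under 0.05; the time columns carry most dots, the RU UF column carries 8, and both columns of indomethacin against control carry none.

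The genes most like each member were sought across the 18 samples. Likeness was measured as the mean absolute difference between the log2 values of both genes, each centred on its own mean, so it describes these arrays and shares their depth and brightness. The genes nearest to aromatase were Areg, an epidermal growth factor family ligand (0.51), Hapln3 (0.66) and Sult1b1 (0.72). Nearest to Sult1e1 were Scg2 (0.44), Tchh (0.52) and the chloride channel Cftr (0.56). Abca4 (0.62), Srxn1 (0.64) and Tle4 (0.68) were nearest to Cyp17a1, but not in every group. Mean log2 levels in RU UF and control PoF were 4.75 and 2.41 for Cyp17a1, 3.06 and 2.90 for Abca4, and 7.28 and 6.56 for Srxn1. Tle4 was higher in RU UF, at 7.22 against 5.63 in control PoF. For Hsd17b1 they were Cacna2d3, Zswim6 and Ext1 (0.47 to 0.49), and for Cyp1b1 Sh3rf1, Prss56 and Mafk (0.58 each). The group means of Hsd17b4 spanned 1.84 and those of Hsd17b12 0.37 log2 units, below the 2 units required for this search.

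**Figure D5:**
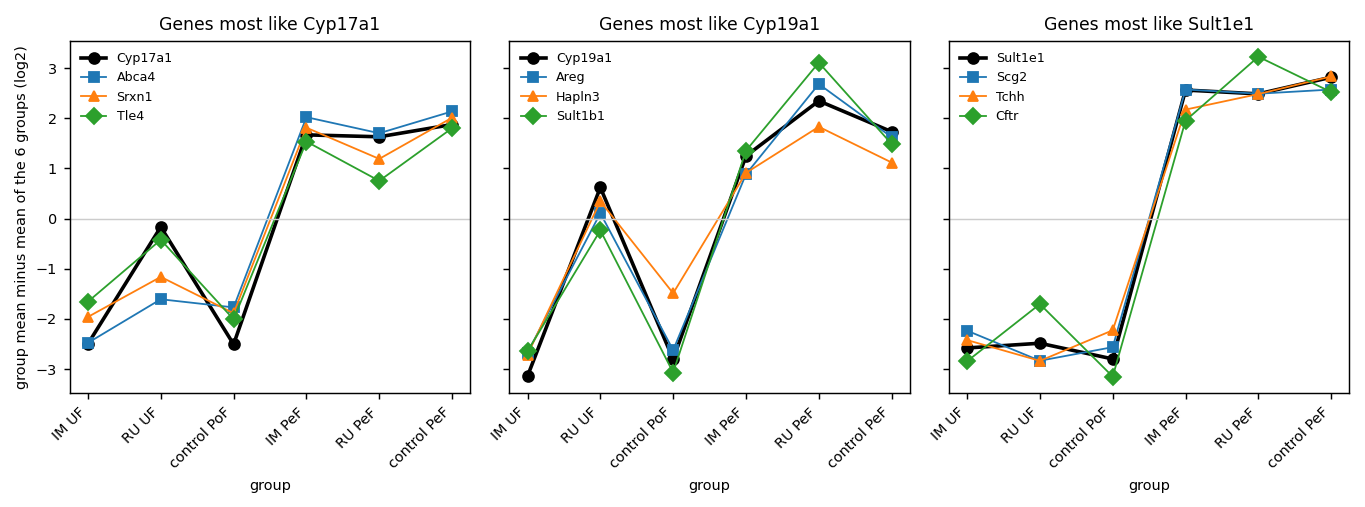
Group means of Cyp17a1, Cyp19a1 and Sult1e1 (black) and of the 3 genes nearest to each, as log2 difference from the mean of the 6 groups (vertical axis), by group (horizontal axis). Areg lies near Cyp19a1, with a mean absolute difference of 0.51 over the samples, and Scg2 near Sult1e1, with 0.44. In RU UF, Abca4 and Srxn1 do not stand apart from control PoF as Cyp17a1 does, while Tle4 is higher there than in control PoF.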

How the data were processed

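Biotin-labelled RNA of 18 follicle samples was hybridized to Affymetrix arrays, 1 per sample, per the labels' protocols. The deposited values are intensity, linear probe set signals with a lowest value of 1. The submitters' processing notes name MAS5, and what it did, its version and its target level were not given in the sources used here. Since array medians differed, signals were quantile-normalized, 2.79 (the 20th percentile of all deposited values) was added, and log2 was taken. The members and lists were chosen with earlier results of these data known.

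Of 31099 probe sets, 57 controls were left out. The 18158 that exceeded the array median in 3 or more of the 18 samples were fitted in limma 3.58.1 (R 4.3.3). The fit had a mean for each group, 12 residual degrees of freedom and an intensity-dependent prior variance. P-values were adjusted by Benjamini-Hochberg over all tested probe sets within each of 11 comparisons. An exact permutation test of 3 against 3 cannot give p under 0.1, so it was not used. The fit was tested on simulated data. A fold change is on the log2(signal + 2.79) scale and understates changes of dim genes.

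A gene was counted through its brightest probe set. The named genes were all members, up to 4 called genes per list and comparison with the smallest adjusted p, and the 3 genes nearest to each member whose group means spanned at least 2 log2 units. Gene IDs gave the current symbol of 20764 probe sets, and 4 of 7 members had a RefSeq promoter. Alternatives were median scaling, no normalization, other pseudocounts, no filter, a replicate block, the compared groups alone, array weights, fewer arrays and a second probe set for Cyp19a1. Figures used matplotlib 3.10.9 in Python 3.11.15. The number of arrays limits the precision.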

Additional observations from a re-analysis of the deposited data

Results flagged for a closer look

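For 2 of the 3 aromatase probe sets, the test of the difference between the effects of RU486 at the 2 times passed the threshold. For Cyp19a1 1379643_at the effect at estrus minus the effect at proestrus was 2.81 ± 0.70 on the log2 scale (SE, n = 3 per group, limma adjusted p = 0.0302), with RU UF above control PoF in every sample and RU PeF overlapping control PeF. For Cyp19a1 1382425_at it was 3.53 ± 0.89 (limma adjusted p = 0.0325). For the third, 1369444_at, it was 1.19 ± 0.84 (limma adjusted p = 0.476). Both calls were lost when any one control PoF or RU PeF array, RU UF 1 or RU UF 2 was left out (adjusted p = 0.0537 to 0.0914), and without normalization (1.39, adjusted p = 0.309, and 2.10, adjusted p = 0.265). The estrus comparison sets unruptured against ruptured follicles, and the cause of the difference was not tested.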

How the results depend on the processing

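Counts of called members stayed within 1.5 times the value given in 94 of 110 recomputations with another setting and in 54 of 78 that left out 1 array. These totals include the 4 comparisons without a called member, which stayed at 0 in every omission of an array. For the 9 probe sets, 845 of 891 differences under another setting kept their side of the threshold, 21 lost and 25 gained a call, and none that was called turned its sign; leaving out 1 array, 651 of 702 kept it, 44 lost and 7 gained a call. Most of these differences were not called in the reported fit, so most that kept their side of the threshold stayed uncalled. With the deposited signals the count of called members was 1 in RU UF against control PoF, 1 in RU UF against RU PeF, 0 in IM PeF against RU PeF, 1 in IM UF against RU UF and 0 in the time difference of the RU486 effect. A pseudocount of 16.4, the median signal, gave 1, 1 and 0 in RU UF against control PoF, IM UF against RU UF and the RU486 time difference. Weighting arrays by quality gave 2 in RU PeF against control PeF, 7 in IM UF against IM PeF, 2 in IM PeF against RU PeF and 2 in the RU486 time difference. Fitting the compared groups alone gave 4 in RU UF against control PoF and 0 in IM PeF against RU PeF, and leaving out the 3 dimmest arrays gave 1 in RU PeF against control PeF and 0 in IM PeF against RU PeF. Leaving out 1 array in turn gave 4 to 6 in control PoF against control PeF, 1 to 2 in RU UF against control PoF, 4 to 6 in IM UF against IM PeF, 3 to 5 in RU UF against RU PeF, 0 to 1 in IM PeF against RU PeF, 1 to 2 in IM UF against RU UF and 0 to 2 in the RU486 time difference. It gave 0 throughout in the other 4 comparisons. The causes were not tested. With the replicate number as a block the counts kept their values, with 5 in control PoF against control PeF and 2 in RU UF against control PoF. Of 45 pairs of samples with the same number 1 had a correlation of deviations over 0.1 (from -0.30 to 0.12). Such correlations cannot show whether samples of the same number belong together, and the labels tie no sample to an animal. In control PoF against control PeF 53.3% of called probe sets were higher with quantile normalization, 74.5% with median scaling and 97.5% without normalization, with medians over all probe sets of 0.05, 0.26 and 1.28 on the log2 scale. Over all probe sets, calls in RU UF against control PoF numbered 1584, against 785 with median scaling, 151 without normalization, 3121 in the compared groups alone, 3692 with weights and 3101 without the 3 dimmest arrays. In RU PeF against control PeF the numbers in the same order were 1346, 885, 22, 300, 3453 and 2244. In IM UF against RU UF there were 1255, against 551 with median scaling, 32 without normalization, 1888 in the compared groups alone and 2645 with weights. IM PeF against RU PeF had 950, 526 with median scaling, 41 without normalization and 3857 with weights, and the RU486 time difference 730, 326, 82 and 2441. Without normalization 609 probe sets in place of 6053 were called in IM UF against IM PeF (10153 with weights), and 1037 in place of 7047 in RU UF against RU PeF. With weights, IM UF against control PoF had 168 calls in place of 6. Signals near background limit Cyp17a1 and the third Cyp19a1 probe set in IM UF and control PoF.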
